A study of Homo sapiens with 19 samples.

Results

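The genes of the cytosolic ribosome were followed across HepaRG cells, a human hepatic line that can be differentiated into hepatocyte-like and biliary-like cells. Members were the genes whose symbol names a protein of the small (RPS) or large (RPL) subunit, together with RPLP0, RPLP1, RPLP2, RPSA and FAU; S6 kinase genes and pseudogenes were left out. This gave 85 of the 78894 genes in the table: 32 of the small subunit, 46 of the large subunit and 7 paralogues that resemble a core gene. Of these, 83 passed the filter on low counts. The other two were the paralogues RPL3L and RPL39L, which had 5 and 0 counts over all 19 libraries.

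All libraries were total RNA of differentiated cells with ribosomal RNA removed. The first batch compared negative control siRNA (siNC) with siRNA against ADAR and siRNA against ADARB1, in 3 libraries per group. The second batch had 3 siNC libraries of its own, 2 libraries of cells exposed to interferon alpha (IFNa), 3 exposed to BX795 and 2 given BX795 and ADAR siRNA together. Doses were 20 nM siRNA, 1000 U/mL IFNa and 1 µM BX795, which inhibits the kinases TBK1, IKK epsilon and PDK1. ADAR and ADARB1 encode enzymes that convert adenosine to inosine in double-stranded RNA. The sources used here leave unstated if cells with IFNa or BX795 alone were transfected with siNC. Nothing in them says that replicates came from separate cultures, and p-values then measure only the spread between these libraries, which may be technical. All groups came from 1 cell line, and groups were set against each other only within a batch.

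The small subunit reads the mRNA and the large subunit forms peptide bonds, and nearly every ribosomal protein is needed to build them. Cells keep the output of these many genes in step, partly through the translation of their mRNAs. Most such mRNAs begin with a 5′ terminal oligopyrimidine (TOP) tract, a C followed by a run of C and U, through which mTOR signalling and the protein LARP1 control their translation and stability. The liver makes large amounts of secreted protein and depends on this supply of ribosomes.

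The first bases of the mRNA carry the TOP tract, so the annotated starts of the members that the results turn on are shown here. Each line has 10 bases before and 20 bases from an annotated start on GRCh38.p14, read on the gene's strand. Where a gene had several annotated starts, the one with the longest run is shown, and it need not be the outer end of the gene. Capitals mark an unbroken run of C and T that opens with C at the start and has at least 5 bases.
RPL41: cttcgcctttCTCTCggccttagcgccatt
RPL13: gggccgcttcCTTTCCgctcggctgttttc
RPLP0: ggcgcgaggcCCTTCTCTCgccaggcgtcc
RPLP1: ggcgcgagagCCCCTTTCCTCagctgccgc
RPS6: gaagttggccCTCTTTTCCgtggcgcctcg
FAU: tcgcttcttcCTCTTTCTCgactccatctt
RPL39: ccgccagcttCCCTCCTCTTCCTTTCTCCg
RPL22L1: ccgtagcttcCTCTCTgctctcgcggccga
RPL32: ggtgacccttgacctcctgggatcgcatct
RPS27L: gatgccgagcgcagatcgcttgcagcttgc
RPL7L1: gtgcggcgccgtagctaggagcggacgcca

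These windows lie at chr12:56116623-56116652 (plus strand) for RPL41, chr16:89560672-89560701 (plus) for RPL13, chr12:120201092-120201121 (minus) for RPLP0, chr15:69452808-69452837 (plus) for RPLP1, chr9:19380217-19380246 (minus) for RPS6 and chr11:65122115-65122144 (minus) for FAU. RPL39 lies at chrX:119791611-119791640 (minus), RPL22L1 at chr3:170870176-170870205 (minus), RPL32 at chr3:12840431-12840460 (minus), RPS27L at chr15:63157458-63157487 (minus) and RPL7L1 at chr6:42879606-42879635 (plus). The bases from the start shown onward are exonic in a transcript that begins there. The run was 5 bases in RPL41, 6 in RPL13 and RPL22L1, 9 in RPLP0, RPS6 and FAU, 11 in RPLP1 and 19 in RPL39. RPL32, RPS27L and RPL7L1 had no such run at an annotated start. The start shown for RPL32 lies inside its RefSeq gene, which spans 12834485 to 12841582.

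A start was available for 68 of the 85 members. Of these, 48 (70.6%) had the run at an annotated start, against 988 of 15843 protein-coding genes (6.24%). Over the 300 bases from 250 before to 50 after the start, the motif CCGGAAG, searched on both strands, was present in 24 members (35.3%) and in 16.5% of protein-coding genes. TATAAA between 40 and 15 bases before the start was found in 4 members (5.88%) and in 4.19% of protein-coding genes. The members lie on 21 chromosomes, with 12 of them on chromosome 19.

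Total counts ranged from 42.7 to 77.1 M per library in batch 1 and from 13.1 to 34.7 M in batch 2, and members took 1.43% to 2.31% of them. The siRNA targets followed the labels: with ADAR siRNA the log2 fold change of ADAR was −2.02 without BX795 and −2.31 with it, and with ADARB1 siRNA that of ADARB1 was −1.58. ADAR itself rose by 1.69 with IFNa. Every adjusted p here and below is from edgeR's quasi-likelihood test over 23121 genes, with Benjamini-Hochberg adjustment, and a gene is called at an adjusted p under 0.05. Levels are counts of a gene scaled to a common library total (CPM) by the trimmed mean of M-values (TMM), and changes are log2 fold changes ± SE. Hepatocyte markers were expressed in every library, with a summed level of at least 9280 CPM, but at different levels in the batches. With siNC the sum was 64800 to 69800 CPM in batch 1 and 11500 to 13900 CPM in batch 2. The biliary and progenitor markers KRT19, CD24, SPP1 and SOX9 were counted in all 19, with 240020, 122912, 27837 and 15813 counts in total. EPCAM, another biliary marker, had 1 count over all libraries and 0 in 18 of 19.

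Within batch 2, IFNa was the treatment with the lowest ribosomal protein mRNA. Of the 83 members tested, 54 fell and 3 rose, where 15.9% of all genes tested fell and 18.4% rose (34.3% in either direction). The median over members was −0.40, against −0.02 over all genes tested. The summed level was 12726 and 14008 CPM in the IFNa libraries and 17142 to 19519 CPM in their siNC controls, so these groups did not overlap. In bulk RNA, fewer cells with a high content of these mRNAs and less mRNA per cell cannot be told apart.

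**Figure D1:**
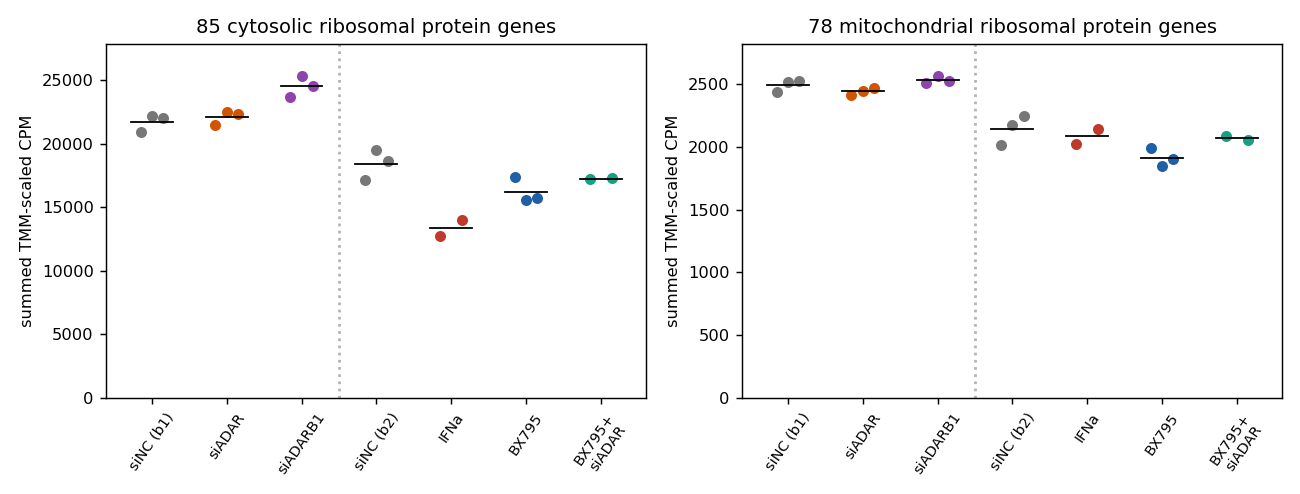
Summed level (TMM-scaled CPM) of the 85 cytosolic ribosomal protein genes (left) and 78 mitochondrial ribosomal protein genes (right) in each of 19 libraries; points are libraries, lines are group means, and the dotted line separates batch 1 (b1) from batch 2 (b2). For the cytosolic genes the IFNa libraries, at 12726 and 14008 CPM, lie below every other library, and the mitochondrial sums of IFNa and siNC overlap.

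Both subunits took part. Of the small subunit genes, 22 of 32 fell and none rose (median −0.47). Of the large subunit genes, 31 of 46 fell and RPL39 rose (median −0.41). All libraries of IFNa lay below all siNC libraries for 58 members and above them for 5, where 22.6% and 24.7% of all genes tested did so.

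RPS2, a core protein of the small subunit, was at 712, 898 and 790 CPM with siNC and at 412 and 496 CPM with IFNa. It fell by 0.82 (SE 0.10, adjusted p = 1.27e-05), and the groups did not overlap. RPS6, the protein phosphorylated by the S6 kinases, was even across controls, at 332, 331 and 343 CPM, and was at 211 and 231 CPM with IFNa. Its change was −0.60 ± 0.07 (adjusted p = 1.2e-05). FAU, which encodes a small subunit protein fused to a ubiquitin-like one, changed by −0.85 ± 0.18 (adjusted p = 0.00169), from 131, 200 and 198 CPM to 81.8 and 114 CPM. RPSA, a small subunit protein also known as a laminin receptor, changed by −0.60 ± 0.11 (adjusted p = 0.000741).

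In the large subunit the lowest values were those of RPL13 and of the stalk protein RPLP1. RPL13 was at 517, 690 and 704 CPM with siNC and at 280 and 379 CPM with IFNa, a change of −0.95 ± 0.14 (adjusted p = 0.000138). RPLP1 was at 288, 418 and 380 CPM with siNC and at 165 and 211 CPM with IFNa, with the same change and adjusted p as RPL13. In both genes replicate 1 of siNC was the lowest control and still above both IFNa libraries.

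The rest of the stalk, which recruits elongation factors to the ribosome, moved the same way. RPLP0 went from 783, 930 and 832 CPM to 468 and 548 CPM, a change of −0.74 ± 0.09 (adjusted p = 9.59e-06). RPLP2 changed by −0.71 ± 0.12 (adjusted p = 0.00042) and RPL7A, another large subunit protein, by −0.82 ± 0.10 (adjusted p = 2.62e-05). Thus all 3 stalk genes fell, none of them with overlapping libraries.

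The members that rose have low GC content, 39.3% in RPL22L1, 43.9% in RPL39 and 42.3% in RPS27L. RPL22L1, a paralogue of RPL22, was at 17.5, 15.4 and 16.2 CPM with siNC and at 24.6 and 22.9 CPM with IFNa, a rise of 0.54 ± 0.08 (adjusted p = 0.000184). RPL39, whose protein lines the exit tunnel for the nascent chain, went from 66.9, 65.2 and 60.0 CPM to 89.6 and 84.6 CPM, a rise of 0.44 ± 0.11 (adjusted p = 0.00478). RPS27L, a paralogue of RPS27 and a known p53 target, rose by 0.23 ± 0.08 (adjusted p = 0.0417). In contrast the paralogue RPL7L1 fell by 0.47 (adjusted p = 0.00676), and RPL22 itself fell by 0.43 (adjusted p = 0.000623). RPL26L1 was at 0.45 ± 0.20 (adjusted p = 0.0878) and the weakly expressed RPL10L, with 412 counts in all, at 0.23 ± 0.58.

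**Figure D2:**
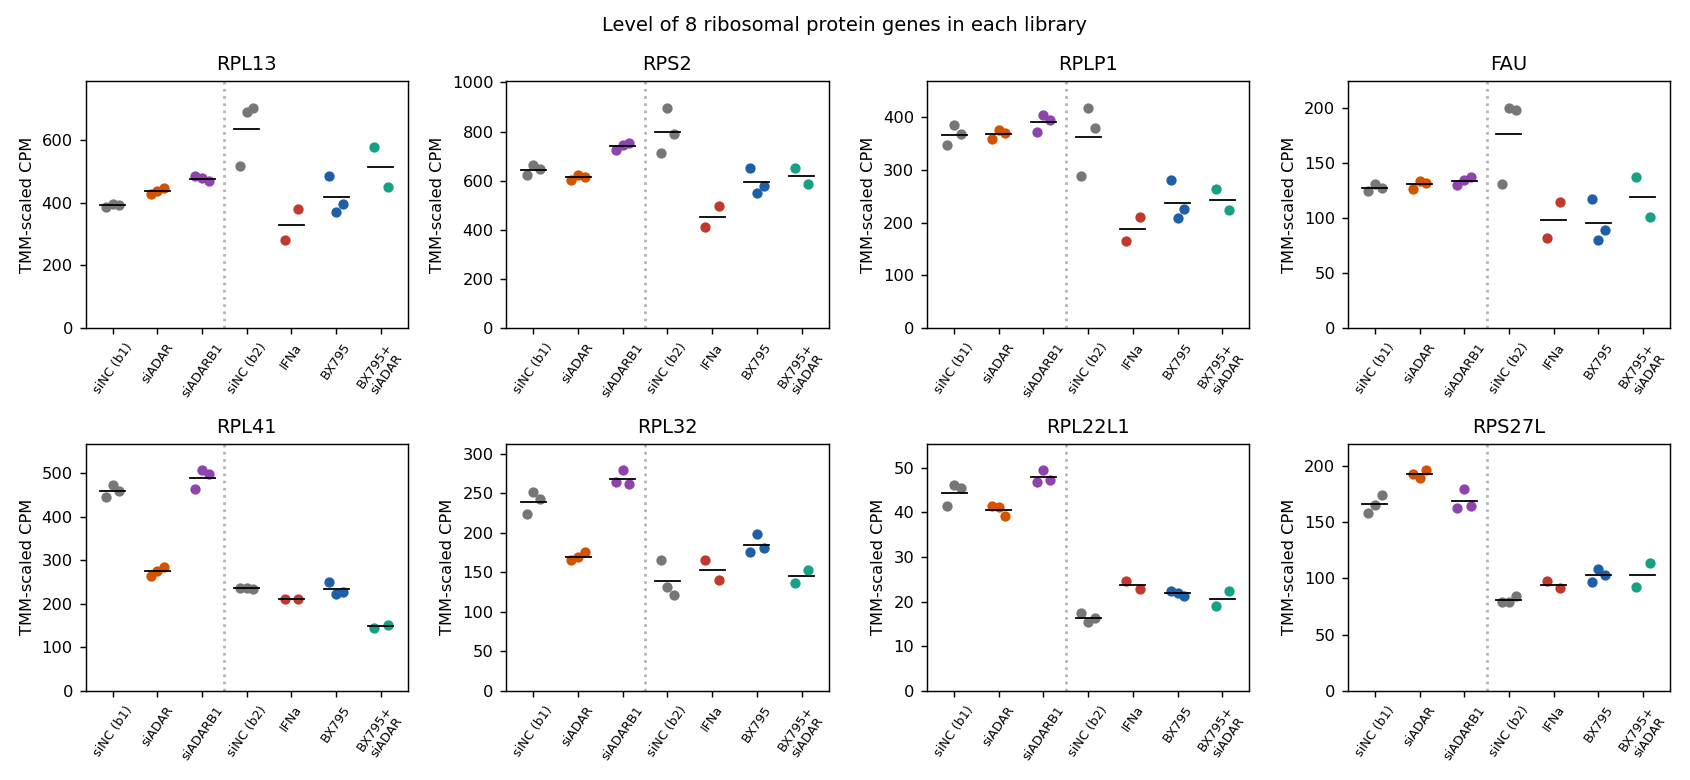
TMM-scaled CPM of 8 ribosomal protein genes in each library on linear axes from 0; points are libraries, lines are group means, and the dotted line separates the batches. RPL13, RPS2, RPLP1 and FAU are lowest or near lowest with IFNa, and RPL22L1 is higher with IFNa than with its siNC. RPL41 is lower in the 5 libraries with ADAR siRNA than in the other libraries of the same batch.

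With IFNa, members with the run at an annotated start and members without it gave similar values. An annotated start that is off by a few bases, or lies inside the gene as shown for RPL32, can miss a TOP tract. The split is therefore one of annotated starts, and the part of the TOP tract was not tested. Of the 48 with a run, 32 fell and 2 rose with IFNa (median −0.41). Of the 20 without one, 12 fell and 1 rose (median −0.36). RPL39 and RPL22L1, shown above with runs of 19 and 6 bases, were the 2 that rose. With BX795, 24 of the 48 fell and 8 rose (median −0.20). Of the 20 without a run, 6 fell and 5 rose with BX795 (median −0.01), where 23.7% of all genes tested fell and 23.4% rose.

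Several measures moved with this comparison, and their part in it was not tested. The siNC libraries of batch 2 stood apart in GC content: the median log2 level of genes above 60% GC minus that of genes below 40% GC, centred within the batch, was 0.27 to 0.96 in siNC, −0.37 and 0.10 with IFNa, and −0.61 to −0.22 with BX795. Across the 83 members, Pearson's r between the change with IFNa and GC content was −0.35, as a description of genes that share libraries. With a correction for GC content 56 members fell and 3 rose, where 26.1% of all genes tested were called. Of these, 47 that fell and 1 that rose, RPL22L1, were called in both fits. RPL22L1 was then at 0.19 (adjusted p = 0.0474), RPL39 was at 0.19 and not called, and RPS27L was at −0.06. Of the members named above, RPLP2 was at −0.36 (adjusted p = 0.00102) and RPS2 at −0.53 (adjusted p = 7.23e-07), both still called. Without IFNa replicate 1 the median over members was −0.33, against −0.03 over all genes tested. In a fit of the compared groups alone 32 fell and 1 rose, where 10.9% of the genes tested in that fit were called.

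The summed markers were at 11000 to 11700 CPM with IFNa and 11500 to 13900 CPM with siNC for hepatocytes (7 of 12 fell, 1 rose), and at 308 to 315 and 326 to 371 CPM for biliary and progenitor cells (2 of 6 tested fell, 2 rose). They were at 379 to 401 and 357 to 364 CPM for mesenchymal cells (2 of 8 fell, 3 rose), and at 204 to 208 and 198 to 236 CPM for cycling cells (2 of 10 fell, none rose). Their part in the ribosomal result was not tested.

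Other genes of the translation machinery were examined in the same way. Of 27 other genes known for TOP mRNAs, 12 fell with IFNa and 1 rose (median −0.25). They included the elongation factors EEF2, which fell by 1.02 (adjusted p = 4.2e-07), and EEF1A1, which fell by 0.63 (adjusted p = 1.18e-06), and the initiation factor EIF4B, which fell by 0.80 (adjusted p = 1.27e-08).

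Ribosome biogenesis factors split: 14 of 40 rose and 8 fell (median 0.02), with the RNA polymerase I factors RRN3 at 0.51 ± 0.08 (adjusted p = 0.000109) and POLR1B at 0.49 ± 0.09 (adjusted p = 0.000427). Of 78 mitochondrial ribosomal proteins, 20 rose and 17 fell (median 0.01). Their summed level was 2023 and 2143 CPM with IFNa and 2015 to 2243 CPM with siNC, so these groups overlapped. Among 28 regulators of ribosomal protein synthesis 7 rose and 6 fell, and the interferon-induced kinase EIF2AK2, which blocks initiation on sensing double-stranded RNA, rose by 1.84 (adjusted p = 3.57e-11).

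**Figure D3:**
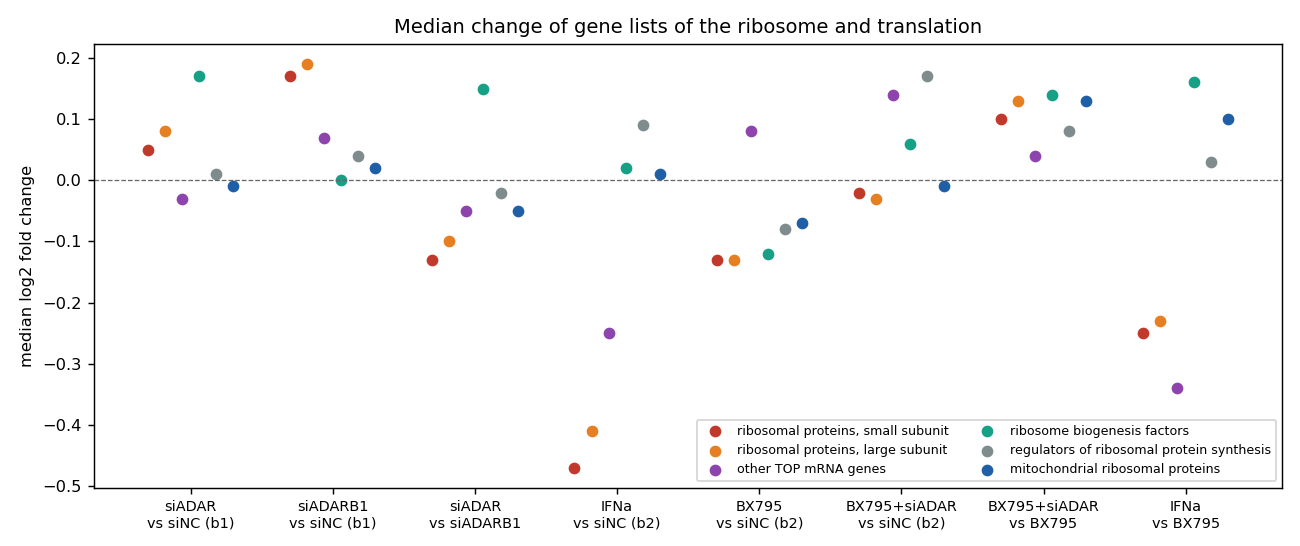
Median log2 fold change of 6 gene lists in each within-batch comparison; each point is the median over the tested genes of a list, and the dashed line is no change. With IFNa against siNC the small and large subunit medians are −0.47 and −0.41 and the mitochondrial median is 0.01.

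BX795 gave a mixed pattern. Against siNC, 33 members fell and 14 rose, where 23.7% of all genes tested fell and 23.4% rose, so the share that rose was below that of all genes. The median over members was −0.11. Libraries did not overlap for 25 members that were lower and 16 that were higher (24.4% and 25.1% of all genes tested). Of the small subunit genes 11 fell and 3 rose, of the large subunit genes 21 fell and 8 rose, and of the 5 paralogues tested 1 fell and 3 rose.

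FAU had the lowest value. It was at 117, 80.2 and 89.1 CPM with BX795, below its controls of 131, 200 and 198 CPM, a change of −0.88 ± 0.16 (adjusted p = 0.000202). RPL18 was at −0.66, RPL13 and RPS15 at −0.61 each, and RPLP1 at −0.60 (adjusted p = 0.000144, 0.000715, 0.000828 and 0.000701). The highest values were RPL39 at 0.62 ± 0.10 (adjusted p = 7.29e-05), RPL26L1 at 0.48, RPL22L1 at 0.41, RPL32 at 0.40 and RPS4X, an X-linked core protein of the small subunit, at 0.39. RPL39 was at 89.7, 112 and 94.6 CPM with BX795, above all controls. RPS6 was at 340, 289 and 293 CPM and did not pass the test (−0.13 ± 0.06, adjusted p = 0.104).

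The direction in which a member moved with BX795 followed its GC content. Pearson's r over 83 members was −0.50. The median change was −0.34 in the 42 members at or above the median GC content of 50.4% and 0.05 in the 41 below. With the GC correction r was 0.34, and 30 members fell and 10 rose, where 35.2% of all genes tested were called. Of these members, 20 and 6 were called the same way in both fits. RPL8 changed from −0.34 to 0.26 and RPL9 from 0.17 to −0.17, called in opposite directions, a pair chosen after their values were seen. In all, 9 of the 47 called members had the opposite sign with the correction. FAU was then at −0.54 (adjusted p = 0.00128), RPL39 at 0.31 (adjusted p = 0.00503) and RPL32 at 0.37 (adjusted p = 0.00282), while RPL22L1, RPS27L and RPS2 were within 0.01 of 0. RPL18 was at −0.28 and RPL13 at −0.33, both called (adjusted p = 0.00238 and 0.00972), whereas RPS15 was at 0.00 (adjusted p = 0.985). RPL26L1, at 0.35, was not called (adjusted p = 0.138), and RPS4X was at 0.23 (adjusted p = 0.00406). Summed hepatocyte markers were 14300 to 15400 CPM with BX795 (5 of 12 rose and 5 fell), biliary and progenitor markers 205 to 208 CPM (2 of 6 rose, 4 fell), mesenchymal markers 232 to 236 CPM (1 of 8 rose, 4 fell) and cycling markers 151 to 167 CPM (8 of 10 fell, none rose). The part of GC content and of these cell types was not tested.

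**Figure D4:**
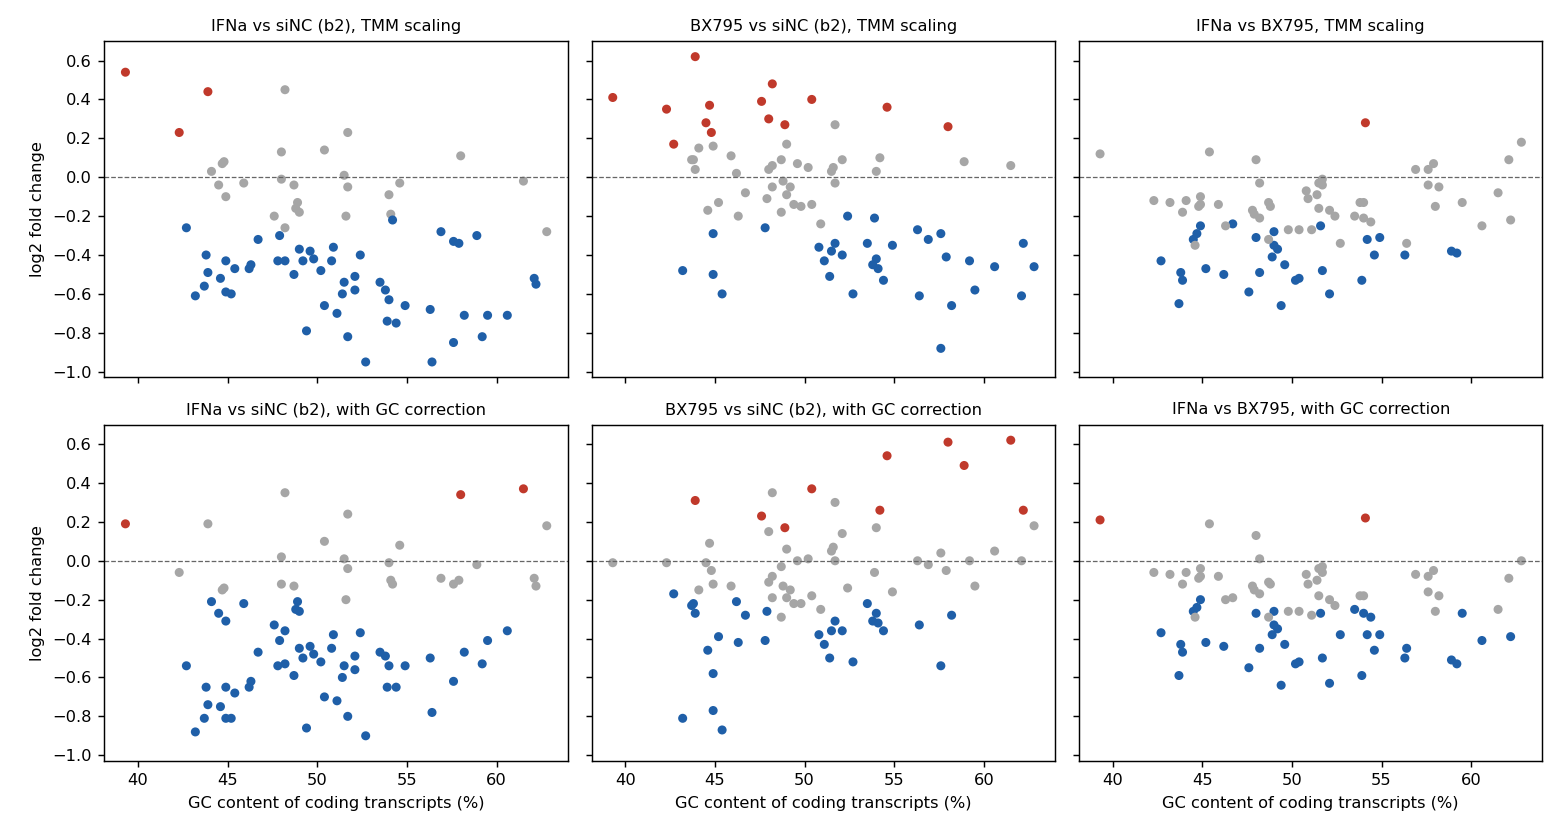
Log2 fold change of the 83 tested members against the median GC content (%) of their coding transcripts for 3 comparisons of batch 2, with TMM scaling (top) and with the GC correction (bottom); red and blue points were called higher and lower at an adjusted p under 0.05, grey points were not called. For BX795 against siNC, Pearson's r goes from −0.50 to 0.34, and for IFNa against BX795 from 0.23 to −0.14.

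The related lists gave the following values with BX795. Of the 27 other TOP genes, 11 rose and 3 fell (median 0.08), with the initiation factor EIF3E at 0.60 ± 0.08 and the elongation factor EEF1D at −0.89 ± 0.12 (adjusted p = 9.44e-06 and 1.58e-05). Of 40 biogenesis factors, 18 fell and 9 rose, among them BOP1, needed for the large subunit, at −1.15 ± 0.18 (adjusted p = 6.83e-05). Of 78 mitochondrial ribosomal proteins, 30 fell and 17 rose (median −0.07). Among the regulators 11 rose and 10 fell, with TSC2, a brake on mTOR, at −0.73 ± 0.10 and AKT1 at −0.60 ± 0.08 (adjusted p = 1.55e-05 and 2.31e-05).

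IFNa and BX795 were also compared with each other, which leaves out the siNC libraries that stood apart in GC content. This comparison was added after seeing the data. Of the members, 31 were lower with IFNa and 1, RPL19, was higher, where 8.45% and 10.4% of all genes tested were. The median was −0.22, and libraries did not overlap for 44 lower and 2 higher members (21.3% and 22.3% of all genes tested). With the GC correction 38 were lower and 2 higher, where 23.6% of all genes tested were called. Of these members, 30 and 1 were called in both fits. In a fit of batch 2 alone 19 were lower and none higher, where 11.4% of the genes tested in that fit were called. Summed hepatocyte markers were lower with IFNa than with BX795, at the values given above (6 of 12 were called lower and 2 higher). Those of biliary and progenitor cells (4 of 6 higher, 2 lower), mesenchymal cells (4 of 8 higher, 1 lower) and cycling cells (6 of 10 higher, none lower) were higher with IFNa. None of these 4 sums overlapped between the groups, and their part was not tested.

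The 5 members with the lowest values here were not the 5 with the lowest values against siNC. RPS29 was at 37.8 and 40.3 CPM with IFNa and at 65.5, 57.9 and 61.5 CPM with BX795, a difference of −0.66 ± 0.09 (adjusted p = 3.36e-05). RPL7 was at 141 and 146 CPM against 238, 216 and 219 CPM (−0.65 ± 0.07, adjusted p = 3.11e-06). RPL15, RPS4X and RPL4 differed by −0.60, −0.59 and −0.53 (adjusted p = 1.55e-06, 5.85e-05 and 5.78e-06). FAU did not pass the test, and its libraries overlapped at 81.8 and 114 CPM with IFNa and 80.2 to 117 CPM with BX795. Other TOP genes were lower with IFNa in 16 of 27 cases and higher in 1 (median −0.34), and EEF1A1 was at −0.84 ± 0.06 (adjusted p = 1.18e-08). In mitochondrial ribosomal proteins 12 of 78 were higher and 3 lower.

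**Figure D5:**
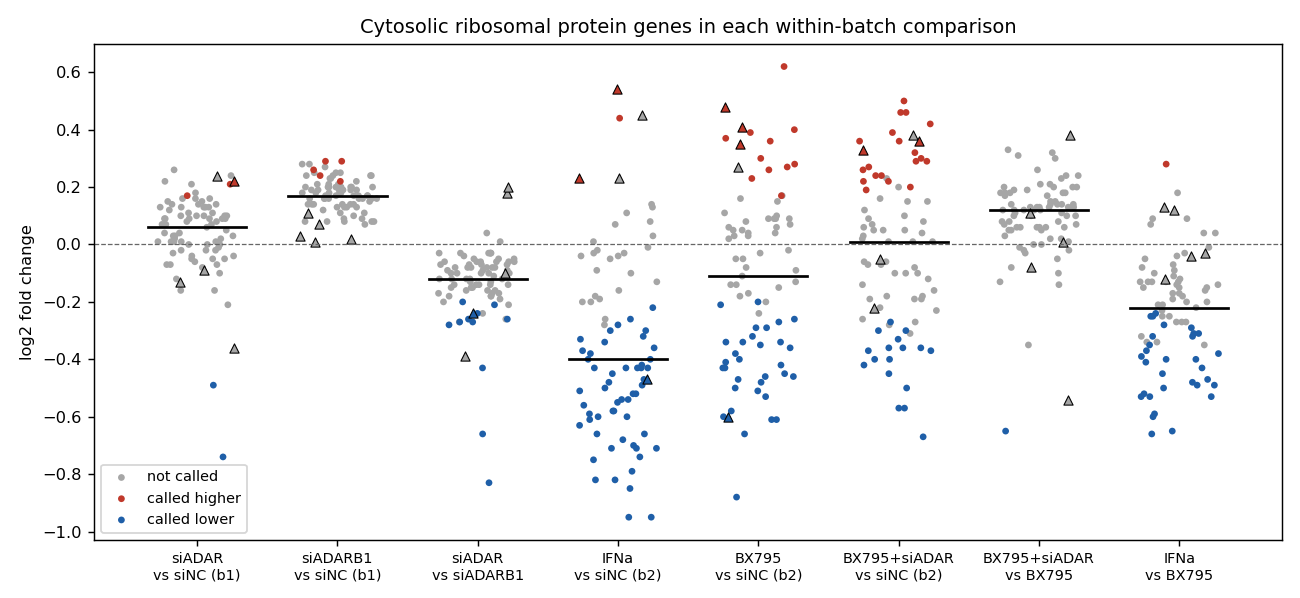
Log2 fold change of the 83 tested members in the 8 within-batch comparisons; red and blue points were called higher and lower at an adjusted p under 0.05, grey points were not called, triangles are paralogues and black bars are medians. The median is −0.40 for IFNa against siNC, 0.17 with ADARB1 siRNA and 0.06 with ADAR siRNA, where RPL41 is the lowest point.

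In batch 1, ADAR siRNA left most members near their control level but lowered RPL41 and RPL32. There, 2 members fell and 3 rose, where 10.8% and 11.0% of all genes tested did. The median was 0.06. Libraries did not overlap for 30 higher and 8 lower members (22.6% and 23.2% of all genes tested).

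RPL41, whose very short and basic protein sits where the subunits meet, was at 445, 473 and 460 CPM with siNC and at 265, 276 and 285 CPM with ADAR siRNA. It fell by 0.74 (SE 0.06, adjusted p = 3.04e-08). With ADARB1 siRNA it was at 463, 507 and 499 CPM, so the ADAR siRNA libraries lay below all others of the batch. The gene lies at chr12:56116633-56117967 on GRCh38.

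In batch 2 the same gene was again lowest with ADAR siRNA. RPL41 was at 236, 236 and 235 CPM with siNC, at 249, 223 and 228 CPM with BX795 and at 145 and 152 CPM with BX795 and ADAR siRNA. It was the only member called between BX795 with ADAR siRNA and BX795 alone (−0.65 ± 0.06, adjusted p = 2.44e-06), where 4.46% of all genes tested were lower and 5.06% higher (9.52% in either direction). The response of RPL41 to ADAR siRNA with BX795 minus that without it was 0.09 ± 0.08 (adjusted p = 0.733). Across the alternatives tried, its change with ADAR siRNA lay between −0.76 and −0.71 against siNC in batch 1. With BX795 and ADAR siRNA in batch 2 it lay between −0.73 and −0.65 against BX795 and between −0.79 and −0.64 against siNC.

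RPL32, a core protein of the large subunit, was at 223, 252 and 242 CPM with siNC and at 165, 169 and 175 CPM with ADAR siRNA, without overlap. It fell by 0.49 (SE 0.10, adjusted p = 0.000896). In batch 2 it was at 175, 198 and 180 CPM with BX795 and at 137 and 153 CPM with BX795 and ADAR siRNA, again without overlap, but did not pass the test (−0.35 ± 0.11, adjusted p = 0.0503). The siNC libraries of batch 2, at 166, 131 and 121 CPM, overlapped those with BX795 and ADAR siRNA. Against these siNC libraries its change with BX795 and ADAR siRNA lay between −0.07 and 0.17 across the fits.

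The 3 members that rose in batch 1 did so by little. RPS27L went from 158, 165 and 174 CPM to 193, 189 and 196 CPM (0.22 ± 0.07, adjusted p = 0.0393). RPS21 was at 0.21 ± 0.07 (adjusted p = 0.0245) and RPL34 at 0.17 ± 0.06 (adjusted p = 0.0491). Without siADAR replicate 2 or 3, or siNC replicate 1 or 2, none of the 3 was called. Without siADAR replicate 1 only RPS21 of the 3 was called. In a fit of batch 1 alone 22 members rose and 7 fell, 29 in all, where 37.8% of the genes tested in that fit were called. In a fit of the compared groups alone 24 rose and 7 fell, where 38.9% of genes were called.

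Biogenesis factors, unlike the members, often rose with ADAR siRNA. Of 40, 14 rose and 2 fell (median 0.17), including EBNA1BP2 at 0.53 ± 0.09, NOP56, a core protein of box C/D particles, at 0.35 ± 0.06, and nucleolin (NCL) at 0.39 ± 0.08 (adjusted p = 0.000184, 0.000455 and 0.00157). MYC, a known activator of ribosome biogenesis, rose by 0.43 and EIF2AK2 by 0.90 (adjusted p = 4.11e-05 and 1.7e-07). Of the other TOP genes 2 of 27 fell, EEF1G at −0.23 and PABPC1 at −0.15, and none rose. Of 78 mitochondrial ribosomal proteins, 6 fell and 3 rose, and MRPL10 fell by 0.70 (adjusted p = 5.96e-06).

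Markers of several cell types also differed with ADAR siRNA. Summed hepatocyte markers were 47700 to 50800 CPM against 64800 to 69800 CPM with siNC (7 of 12 fell, 2 rose), and biliary and progenitor markers were 1070 to 1110 against 542 to 588 CPM (6 of 6 tested rose). Mesenchymal markers were 303 to 318 against 191 to 217 CPM (3 of 8 rose, 1 fell) and cycling markers 518 to 575 against 404 to 447 CPM (6 of 10 rose). Their part in the ribosomal values was not tested.

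With ADARB1 siRNA the estimates of all 83 members were positive, with a median of 0.17 against 0.00 over all genes tested. Of these, 5 passed the test, all higher, where 2.1% of all genes tested rose and 4.61% were called in either direction. At an unadjusted p under 0.05 there were 39 higher and none lower, where 7.64% and 8.09% of all genes tested were. All ADARB1 siRNA libraries lay above all siNC libraries for 62 members and below them for none, where 15.3% and 15.4% of all genes tested did so. The summed level was 23722 to 25329 CPM, against 20898 to 22186 CPM with siNC.

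The 5 called members belonged to both subunits. RPL19 was at 334, 371 and 358 CPM with siNC and at 407, 465 and 432 CPM with ADARB1 siRNA (0.29 ± 0.08, adjusted p = 0.0395). RPL34 went from 147, 154 and 155 CPM to 181, 196 and 183 CPM (0.29 ± 0.06, adjusted p = 0.00498). RPS18, RPS21 and RPS3A rose by 0.26, 0.24 and 0.22 (adjusted p = 0.0431, 0.0371 and 0.0346). In each of these 5 genes the groups did not overlap.

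The count differed between fits. In a fit of batch 1 alone 54 members rose and none fell, where 16.7% of the genes tested in that fit were called. In a fit of the compared groups alone 46 rose, where 16.1% were called. Leaving out any 1 of the 6 libraries in the fit of all groups left 1 or 2, where 2.62% to 3.07% of genes were called. Summed hepatocyte markers were 56600 to 59300 CPM with ADARB1 siRNA (5 of 12 fell), biliary and progenitor markers 606 to 619 CPM (2 of 6 tested rose), mesenchymal markers 191 to 196 CPM (1 of 8 rose and 1 fell) and cycling markers 355 to 375 CPM (4 of 10 fell), and their part was not tested. Of the other TOP genes none of 27 was called (median 0.07), and of 78 mitochondrial ribosomal proteins 1 fell (median 0.02).

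Set against each other, ADAR siRNA gave lower values than ADARB1 siRNA in 79 of 83 members. Of these 12 were called lower and none was called higher (9.64% and 9.9% of all genes tested), with a median of −0.12. Libraries did not overlap for 47 lower and 2 higher members (23.3% and 21.8% of all genes tested). After RPL41 at −0.83 ± 0.06 (adjusted p = 5.8e-09) and RPL32 at −0.66 ± 0.10 (adjusted p = 5.79e-05) came RPL28, at 198, 220 and 207 CPM against 280, 277 and 286 CPM (−0.43 ± 0.08, adjusted p = 0.000433). RPS28 and RPS2 were at −0.28 and −0.27. All comparisons with siNC in a batch share those control libraries, so their values stand side by side and are not separate evidence. Leaving out siADAR replicate 1, 2 or 3 left 5, 7 and 7 members called, where 14.9%, 14.7% and 14.9% of all genes tested were. Leaving out siADARB1 replicate 2 left 5, where 15.7% were. Of the markers, with the sums given above, 6 of 12 for hepatocytes were lower with ADAR siRNA than with ADARB1 siRNA and 2 higher. For biliary and progenitor cells 3 of 6 were higher, for mesenchymal cells 3 of 8 were higher and 2 lower, and for cycling cells all 10 were higher. Their part was not tested.

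BX795 with ADAR siRNA against siNC gave 21 members that rose and 17 that fell, where 21.4% and 18.9% of all genes tested did (median 0.01). With DESeq2 size factors the split was 16 and 23, and with the GC correction 10 and 16. In these fits 40.2% and 33.6% of all genes tested were called. Libraries did not overlap for 22 higher and 19 lower members (26.5% and 24.1% of all genes tested). RPL41 was lowest at −0.67 ± 0.06 (adjusted p = 3.91e-07), then RPLP1 and FAU at −0.57 each, RPS9 at −0.50 and RPS28 at −0.45. RPL39 at 0.50, RPL31 and RPS4X at 0.46, RPL34 at 0.42 and RPL26 at 0.39 were highest. With the GC correction RPL41 was at −0.79 and RPLP1, RPS28 and RPS9 at −0.54, −0.37 and −0.17, all called, and FAU at −0.33 was not (adjusted p = 0.0575). RPS4X was then at 0.30 and called, whereas RPL39, RPL31, RPL34 and RPL26, at 0.19, 0.17, 0.15 and 0.11, were not. Without replicate 2 of BX795 with ADAR siRNA the median over members was −0.08, against −0.06 over all genes tested. The 2 libraries of BX795 with ADAR siRNA differed in the GC measure, at 0.01 and −0.45. Summed markers with BX795 and ADAR siRNA were 9280 to 11600 CPM for hepatocytes (6 of 12 lower and 3 higher than with siNC) and 258 to 287 CPM for biliary and progenitor cells (3 of 6 lower, 3 higher). They were 205 to 215 CPM for mesenchymal cells (5 of 8 lower, 1 higher) and 105 to 109 CPM for cycling cells (all 10 lower), and their part was not tested.

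Between BX795 with ADAR siRNA and BX795 alone, 70 of 83 estimates were positive (median 0.12), yet none passed the test as higher. Without BX795 replicate 1, 3 members were called, 1 of them higher, where 8.23% of all genes tested were called. Without replicate 1 or 2 of BX795 with ADAR siRNA the members' median was 0.10 or 0.03, against −0.03 or −0.04 over all genes. Libraries did not overlap for 16 higher and 4 lower members, where 18.7% and 16.2% of all genes tested did so. Against BX795 alone 5 of 12 hepatocyte and 5 of 10 cycling markers were lower, and 1 and none higher. Of the biliary and progenitor markers 2 of 6 were higher and 1 lower, and of the mesenchymal markers 1 of 8 was higher and 2 lower. The part of these markers was not tested. The response to ADAR siRNA with BX795 minus that without it, a comparison added after seeing the data that spans both batches, called no member by edgeR or by DESeq2, none at an unadjusted p under 0.05 (7.35% of all genes tested were higher and 6.51% lower at it), where 1.42% of all genes tested were called higher, 2.0% lower and 3.42% in either direction. For EIF2AK2 this difference was −0.52 ± 0.12 (adjusted p = 0.0197).

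The paralogue RPL22L1 was at 41.4, 46.0 and 45.5 CPM with siNC of batch 1, at 41.3, 41.2 and 39.1 CPM with ADAR siRNA and at 46.8, 49.4 and 47.3 CPM with ADARB1 siRNA, and was called between the latter groups (−0.24 ± 0.07, adjusted p = 0.0194). RPL7L1 fell with BX795 by 0.60 (adjusted p = 0.000224), from 141, 184 and 209 CPM to 124, 110 and 118 CPM. RPL26L1 was between 2.51 and 15.4 CPM in every library and RPL10L below 1 CPM.

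Counts of single members carry an uncertainty of assignment. The table holds 1604 rows named as ribosomal protein pseudogenes, whose counts were 0.824% to 1.11% of the members' counts in every library. Adding these counts to the members of the same name moved no count of called members by more than 1.5 times in any comparison. Reads that match a member and a near-identical copy cannot be told apart, and the sources used here do not say how they were shared.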

How the data were processed

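The authors deposited expected counts per gene for 19 libraries, made with STAR and Salmon on GRCh38.p14, per the submitters' processing notes; their versions and the annotation release are unstated in the sources used here. Values were rounded to whole numbers, and symbols were found for 61463 of 78894 genes. A single edgeR 4.0.16 model (R 4.3.3, quasi-likelihood, TMM scaling, filterByExpr) took all libraries, with the group as its term and 12 residual degrees of freedom. Groups of 2 libraries thus share the spread of the others. Adjusted p-values are Benjamini-Hochberg over 23121 genes. The fitting was tested on simulated data with known changes.

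The alternatives were DESeq2 1.42.0, its size factors in edgeR, no expression filter, libraries of the batch or of the compared groups only, pseudogene counts added to members, a replicate block, a correction for GC content, and each replicate left out. GC content is the median over coding transcripts of GENCODE, found for 87% of tested genes. Same-numbered replicates did not pair: correlations of their deviations were between −0.16 and 0.21.

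The members, gene lists and tests were chosen with earlier results of these data known. Named genes were the paralogues, RPLP0, RPLP1, RPLP2, RPSA, FAU, RPS6, up to 5 called members with the highest and 5 with the lowest change per comparison, and up to 3 genes with the smallest p per other list; RPL22, RPL8, RPL9 and a few others were added after their values were seen. The comparison of IFNa with BX795 and the difference of the responses to ADAR siRNA were also added after seeing the data. Levels were not compared between genes. One related gene is not reported here.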

Additional observations from a re-analysis of the deposited data

How the results depend on the processing

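The main limits are groups of 2 libraries, the lower depth of batch 2, siNC libraries that differ from the rest of batch 2 in GC content, and a spread shared between batches. Over all alternatives other than left-out replicates, for the 34 named members alone, 131 changes lost and 165 gained a call. A further 26 reversed, all of these with the GC correction alone or with a replicate block. A change of sign counted as reversed only where the member was called in the main fit or in the alternative. The other 2397 kept their side of the threshold but not always their sign. For BX795 with ADAR siRNA against BX795, RPLP0 went from 0.02 to −0.05 with the GC correction, called in neither fit. The causes were not tested, and smaller fits hold fewer libraries. In fits of the batch alone, called members against siNC went from 5 to 29 with ADAR and 5 to 54 with ADARB1 siRNA. They went from 57 to 46 with IFNa, 47 to 38 with BX795 and 38 to 18 with BX795 and ADAR siRNA. Between ADAR and ADARB1 siRNA they went from 12 to 37, and between IFNa and BX795 from 32 to 19. Between BX795 with ADAR siRNA and BX795 they did not change. Whether the shared spread made adjusted p-values too large where counts rose and too small where they fell was not tested.

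Counts of called members moved by over 1.5 times as follows, with the share of all genes tested in that fit that were called in brackets. In a fit of the compared groups alone they were 31 (38.9%) for ADAR siRNA and 46 (16.1%) for ADARB1 siRNA, both against siNC. They were 38 (37.5%) for ADAR against ADARB1 siRNA and 33 (10.9%) for IFNa against siNC. For BX795 with ADAR siRNA they were 5 (23.1%) against siNC and 2 (5.37%) against BX795. In fits of the batch alone they were 29 (37.8%) for ADAR siRNA, 54 (16.7%) for ADARB1 siRNA and 37 (35.7%) for ADAR against ADARB1 siRNA. They were 18 (33.0%) for BX795 with ADAR siRNA against siNC and 19 (11.4%) for IFNa against BX795. The GC correction gave 9 (28.5%) for ADAR siRNA, 8 (7.74%) for ADARB1 siRNA and 4 (14.1%) for BX795 with ADAR siRNA against BX795. DESeq2 gave 15 for ADARB1 siRNA, with 1694 genes called in all, and 5 for BX795 with ADAR siRNA against BX795, with 2834. These are 2.15% and 3.59% of all 78894 genes in the table, not of the genes tested. For BX795 with ADAR siRNA against BX795, DESeq2 size factors in edgeR gave 2 (9.14%) and no expression filter gave 5 (4.35%).

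Replicate numbers did not pair the samples. With a replicate block the counts of called members were as follows, with the share of all genes tested that were called in brackets. They were 3 (17.8%) for ADAR siRNA, 2 (2.97%) for ADARB1 siRNA and 9 (15.6%) for ADAR against ADARB1 siRNA. They were 52 (25.0%) for IFNa, 43 (43.3%) for BX795 and 25 (33.1%) for BX795 with ADAR siRNA, all against siNC. Against BX795 they were 2 (6.12%) for BX795 with ADAR siRNA and 25 (13.6%) for IFNa. For the difference of the ADAR responses the count was 0 (1.99%). With the block and the GC correction they were 8, 7, 14, 55, 38, 17, 4, 33 and 0 in the same order. The shares were then 25.6%, 6.09%, 23.1%, 19.5%, 32.4%, 27.9%, 11.2%, 19.6% and 4.31%.

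With the GC correction, and with it and the replicate block, these values of the named members reversed, in the sense given above. For BX795 against siNC, RPL22L1 was at −0.01 and −0.01, RPL31 at −0.01 and −0.01, RPL34 at −0.05 and −0.05, RPL7 at −0.23 and −0.23, RPLP2 at 0.05 and 0.05, RPS2 at 0.00 and 0.00, RPS27L at −0.01 and −0.01, and RPS3A at −0.27 and −0.27. For BX795 with ADAR siRNA against siNC, RPL22L1 was at −0.10 and −0.11, RPL7 at −0.01 and −0.02, RPS15 at 0.06 and 0.07, and RPS3A at −0.09 and −0.07. For IFNa against siNC, RPS27L was at −0.06 and −0.04. Over all members tested, the GC correction gave the opposite sign for 9 of 47 called with BX795, 8 of 38 with BX795 and ADAR siRNA and 1 of 57 with IFNa, all against siNC. Beyond the named members, RPL8 was at 0.26, RPL9 at −0.17 and RPL36 at 0.18 for BX795 against siNC.

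Leaving out 1 replicate at a time gave 2 to 4 called members for ADAR siRNA, 1 to 2 for ADARB1 siRNA, 5 to 9 for ADAR against ADARB1 siRNA, 32 to 58 for IFNa, 38 to 53 for BX795, 8 to 47 for BX795 with ADAR siRNA against siNC, 1 to 4 for it against BX795, 23 to 31 for IFNa against BX795 and 0 to 1 for the difference of the ADAR responses. Where this left 1 library in a group, that library was assumed to vary like the other groups, and only medians are given. Without IFNa replicate 1 or 2 the median over members was −0.33 or −0.44 against siNC (all genes −0.03 or −0.04). Against BX795 it was −0.17 or −0.28 (all genes 0.00 in both). Without replicate 1 or 2 of BX795 with ADAR siRNA it was 0.01 or −0.08 against siNC (all genes −0.09 or −0.06). Against BX795 it was then 0.10 or 0.03 (−0.03 or −0.04), and for the difference of the ADAR responses 0.05 or −0.02 (−0.02 or −0.04). With 1 replicate left out, 16.1% to 18.5% of all genes tested were called for ADAR siRNA and 2.62% to 3.07% for ADARB1 siRNA. The shares were 14.2% to 15.7% for ADAR against ADARB1 siRNA and 38.0% to 49.5% for BX795.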
